A study of Mus musculus with 11 samples.

Results

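Type I interferon response genes are the antiviral genes that cells switch on after interferon-alpha or interferon-beta binds its receptor. A list of 39 such genes was followed across 3 states of cultured mouse macrophages. All 39 were found among the 18193 genes measured, each read from 1 probe set: of those that name a single gene, the one with the highest average across the 11 arrays. The interferon regulatory factors and the families of guanylate-binding and immunity-related GTPases were left out of the list by its rule; Mx1 and Mx2, which are also GTPases, belong to it. The cells were grown for 7 days from bone marrow of 7-week-old C57BL/6 mice that lack Rag1 (Rag1-/-) and hence make no mature B or T cells, and cells with F4/80 on their surface were sorted. M0 cells (5 arrays) received no cytokines, M1 cells (3 arrays) received IFN-g and LPS, with LPS in the last 24 h, and M2a cells (3 arrays) received IL-4 and IL-13. Total RNA was measured on Affymetrix mouse genome arrays, and M0 served as the common standard. The labels number the replicates without saying whether each had its own mouse, so the p-values reflect the spread among these arrays alone, and that spread may be technical.

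As background, type I interferons bind IFNAR1 and IFNAR2, and the kinases JAK1 and TYK2 then activate the transcription factor complex ISGF3, which contains STAT2 and IRF9 and binds the interferon-stimulated response element (ISRE) in the promoters of its target genes. IFN-g, a type II interferon, acts mainly at another element, the gamma-activated site (GAS), and LPS, a bacterial cell wall component sensed by TLR4, makes macrophages secrete interferon-beta. IL-4 and IL-13 act through STAT6.

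Values are the deposited log2 probe-set values, so that a difference of 1 is a 2-fold change, and they rank a gene across arrays but not one gene against another. The F4/80 gene Adgre1 averaged 11.19 in M0, 12.41 in M1 and 11.74 in M2a. Neutrophil genes read higher in M0 than in the other states: the mean level of 11 neutrophil markers ran from 11.42 to 12.88 in the M0 arrays, from 7.26 to 7.43 in M1 and from 5.38 to 5.47 in M2a, and 8 eosinophil, basophil and mast cell markers ran from 7.20 to 9.19, 3.72 to 3.77 and 4.26 to 4.45. The mean of 11 macrophage markers ran from 10.93 to 11.49 in M0, 11.97 to 11.98 in M1 and 10.46 to 10.72 in M2a. These 11 genes did not move together in the limma fit described below. In M1 against M0, 6 were called higher and 1 lower, from 2.4 for Fcgr1 to -1.49 for Itgam. In M2a against M0, 2 were called higher and 6 lower, from 0.55 for Adgre1 to -2.08 for Fcgr1. Their mean alone therefore does not measure macrophage content. The part of these shifts in the results below was not tested, and in bulk RNA fewer cells of a type and less RNA per cell cannot be told apart. The M0 arrays were not independent in the deposited table: on all 45101 probe sets arrays 1 to 3 of M0 had the same mean as arrays 4 and 5 (largest difference 8.3e-05), while the fit counts them as 5 separate arrays.

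M1 macrophages had nearly the whole list raised. In M1 against M0, 38 of the 39 genes rose (limma, Benjamini-Hochberg adjusted over all genes, threshold 0.05), against 22.1% of all genes tested (17.6% fell), and the exception was Isg20. For 36 of the 38 the rise was at least 2-fold, which 6.27% of all genes reached. The M1 arrays all lay above the M0 arrays for 38 members, as for 22.7% of all genes. The median difference of the members was 2.34, with a range of -0.22 to 5.75, and that of all genes was 0.06. Of the 67 genes on the array that were higher in M1 by a log2 difference of at least 4, 7 were members: Ifit1, Ifit2, Oasl1, Mx1, Zbp1, Oasl2 and Usp18.

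**Figure D1:**
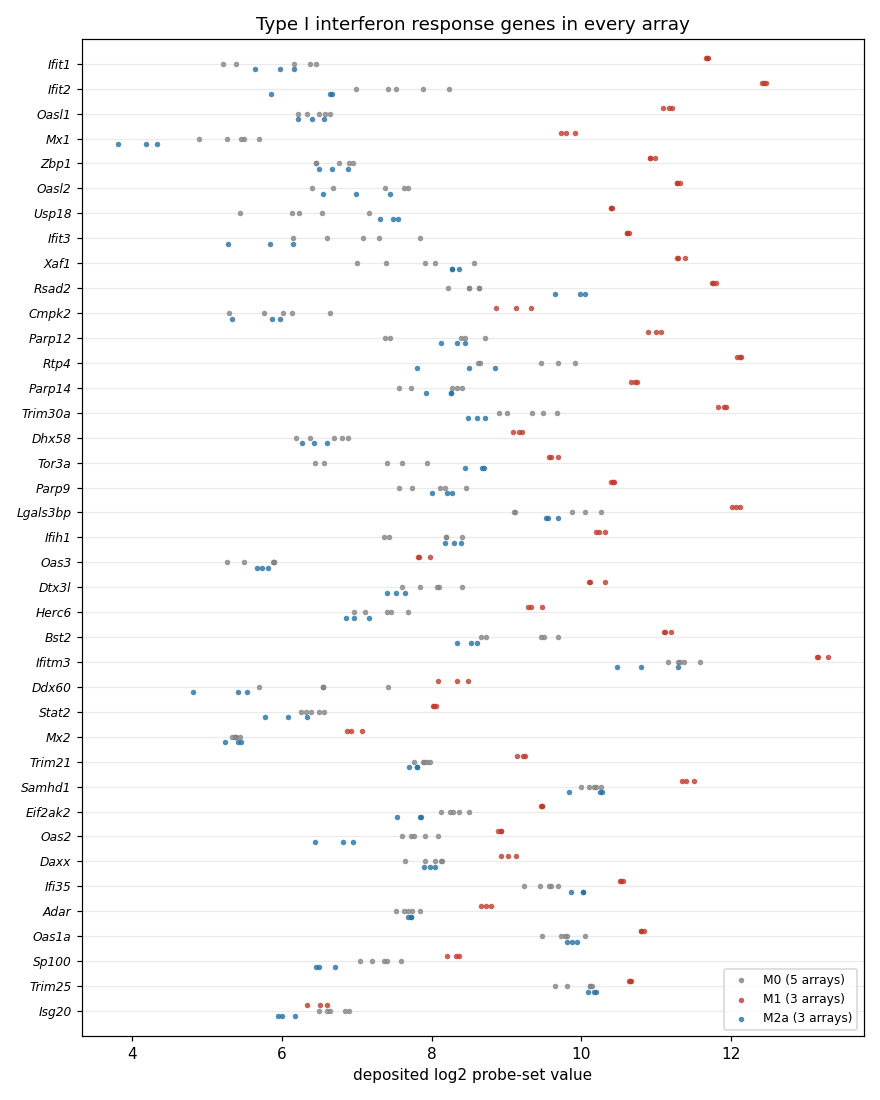
Deposited log2 value (horizontal axis) of each of the 39 genes (vertical axis, ordered by M1 minus M0) in each of the 11 arrays. Each point is 1 array, with M0 in grey, M1 in red and M2a in blue. The M1 points lie to the right of all others for every gene except Isg20, whose M1 points overlap those of M0, and the M2a points lie near or to the left of M0 for most genes.

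M2a macrophages had no such common shift. In M2a against M0, 4 members rose (10.3% of the list, where 18.6% of all genes rose) and 12 fell (30.8%, where 13.3% of all genes fell). The risers were Rsad2, Tor3a, Usp18 and Ifi35, and 3 of them rose at least 2-fold (4.41% of all genes). The genes that fell were Ddx60, Mx1, Ifit3, Ifit2, Oas2, Sp100, Bst2, Trim30a, Isg20, Eif2ak2, Ifitm3 and Dtx3l, of which the first 5 fell at least 2-fold (4.95% of all genes). The M2a arrays all lay below the M0 arrays for 9 members (13.9% of all genes) and above them for 4 (21.3%). The median difference was -0.09, against 0.07 for all genes. These counts moved with the setting. With the mean of the hybridization controls as a covariate, 1 member was called higher and 24 lower, 11 of them among the 12. In that fit 25.4% of all genes were called higher and 24.1% lower. That covariate separates M0 (10.61 to 11.70) from M1 (9.64 to 9.75) and M2a (9.79 to 9.96), so in that fit it and the contrast with M0 are largely the same split of the arrays. The 13 members that were called lower with the covariate and not without it were Ifit1, Oasl1, Oasl2, Ifih1, Stat2, Zbp1, Dhx58, Parp14, Xaf1, Parp9, Parp12, Rtp4 and Lgals3bp. Without M0 arrays 1 and 4, 4 members were called higher and 18 lower, where 26.6% and 18.7% of all genes were. The poly-A controls, which were not used as a covariate, separated M0 from the other groups more widely than the hybridization controls. Their mean ran from 9.19 to 10.32 in M0, 5.56 to 5.66 in M1 and 6.31 to 6.50 in M2a. The part of this split in the contrasts with M0 was not tested.

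Set directly against M2a, all 39 members were higher in M1 (13.7% of all genes), 35 of them at least 2-fold (5.51%), and the M1 arrays lay above the M2a arrays for every member (30.7% of all genes). Cmpk2, Isg20, Trim25 and Tor3a lost this call in at least 1 alternative setting, and the other 35 members kept it in all. The median difference was 2.36, against -0.02 for all genes. Both comparisons with M0 use the same M0 arrays, so they are not independent; side by side, 11 members were higher in M1 and lower in M2a (1.70% of all genes), 4 were higher in both (7.96%), 23 were higher in M1 and not called in M2a (12.4%), and Isg20 was not called in M1 and lower in M2a (4.11%).

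**Figure D2:**
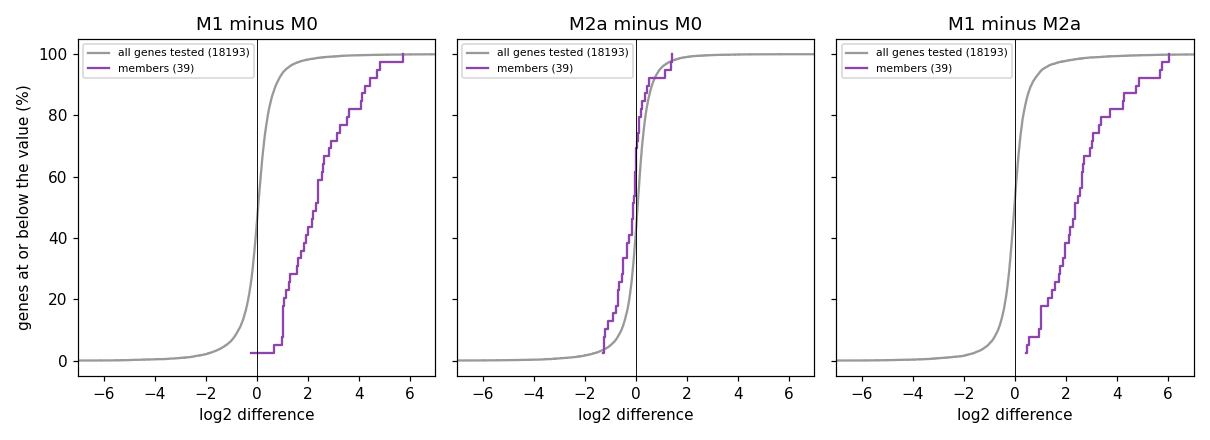
Cumulative share of genes in percent (vertical axis) at or below each log2 difference (horizontal axis), for the 39 members in purple and for all 18193 genes in grey, in 3 panels for M1 minus M0, M2a minus M0 and M1 minus M2a. The members' curve stands to the right of all genes in the panels with M1, with medians of 2.34 and 2.36, and crosses that of all genes in the panel of M2a minus M0, with a median of -0.09.

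Promoter sequences were available for 29 of the 39 genes in RefSeq's mouse annotation (GRCm38.p6), as windows from 250 bases before to 50 bases after each annotated start. Mx1, Mx2, Oas2, Usp18, Zbp1, Dhx58, Parp14, Parp9, Rtp4 and Tor3a had none. The windows were searched on both strands for the core of the ISRE, spelled GAAANNGAAA with N for any base, and for the GAS, spelled TTCNNNGAA. An ISRE core was present for 13 of the 29 members (44.8%), against 524 of the 14452 genes tested on the array that have a window (3.63%), and in 1131 of all 32851 windows (3.44%). A GAS was present for 9 members (31.0%), against 1239 of those 14452 genes (8.57%), and both were present for 4 (13.8%, against 0.533%): Bst2, Ifitm3, Eif2ak2 and Oas1a. The promoters below are those of the genes described in full that hold an ISRE core, shown because they let the element be compared between a gene that rose in both cytokine states (Rsad2), genes that rose in M1 and fell in M2a (Ifit3, Bst2 and Ddx60) and the gene with the largest rise in M1 (Ifit1). Each is the 250 bases before the start, read 5′ to 3′ on the strand of the gene, with ISRE core matches in capitals: Ifit1 at chr19:34640639-34640888 (plus strand), Ifit3 at chr19:34583279-34583528 (plus), Rsad2 at chr12:26456453-26456702 (minus), Bst2 at chr8:71537473-71537722 (minus) and Ddx60 at chr8:61927837-61928086 (plus).
Ifit1: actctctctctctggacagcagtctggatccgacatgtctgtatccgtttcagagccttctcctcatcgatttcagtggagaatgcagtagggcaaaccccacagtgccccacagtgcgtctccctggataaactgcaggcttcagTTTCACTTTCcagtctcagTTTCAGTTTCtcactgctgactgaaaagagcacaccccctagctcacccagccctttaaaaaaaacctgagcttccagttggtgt
Ifit3: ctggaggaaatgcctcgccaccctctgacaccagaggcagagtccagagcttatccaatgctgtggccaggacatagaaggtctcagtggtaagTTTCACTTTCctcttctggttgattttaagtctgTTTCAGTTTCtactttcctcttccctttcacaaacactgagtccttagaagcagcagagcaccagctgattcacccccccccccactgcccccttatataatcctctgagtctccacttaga
Rsad2: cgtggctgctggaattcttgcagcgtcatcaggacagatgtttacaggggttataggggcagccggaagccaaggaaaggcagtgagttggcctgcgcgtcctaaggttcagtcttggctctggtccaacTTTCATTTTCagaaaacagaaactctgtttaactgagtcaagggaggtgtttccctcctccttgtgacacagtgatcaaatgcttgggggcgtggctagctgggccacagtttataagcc
Bst2: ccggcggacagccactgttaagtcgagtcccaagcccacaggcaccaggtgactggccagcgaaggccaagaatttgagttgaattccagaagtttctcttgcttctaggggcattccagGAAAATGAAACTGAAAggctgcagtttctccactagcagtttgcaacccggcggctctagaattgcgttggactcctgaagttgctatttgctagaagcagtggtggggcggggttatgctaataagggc
Ddx60: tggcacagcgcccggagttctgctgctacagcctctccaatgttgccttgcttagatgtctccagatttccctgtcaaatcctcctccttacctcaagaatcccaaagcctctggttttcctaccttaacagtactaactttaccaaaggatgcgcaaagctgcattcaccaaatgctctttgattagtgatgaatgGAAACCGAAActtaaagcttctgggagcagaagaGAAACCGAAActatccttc

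Counted from the start, with -1 for the last base before it, the Ifit1 cores began at -104 and -85 and the Ifit3 cores at -156 and -122. In both genes the upstream core read TTTCACTTTC and the downstream core TTTCAGTTTC, which are the element on the opposite strand. Rsad2 held a single core, TTTCATTTTC at -120. Bst2 held overlapping cores at -130 and -124, and a GAS at -136 that overlaps the first of them. Ddx60 held the core GAAACCGAAA at both -53 and -19. Over all members there were 21 core matches, 14 before the start and 7 after it, between -222 (Stat2) and 42 bases past the start (Ifih1). The genes with a core did not have the larger rises in M1: their median M1 minus M0 difference was 1.93 (13 genes, 1.04 to 5.75), against 2.10 (16 genes, -0.22 to 4.83) for those without one in the window. Isg20 held no ISRE core and a GAS at -73. A match describes letters in this window and does not show binding.

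**Figure D3:**
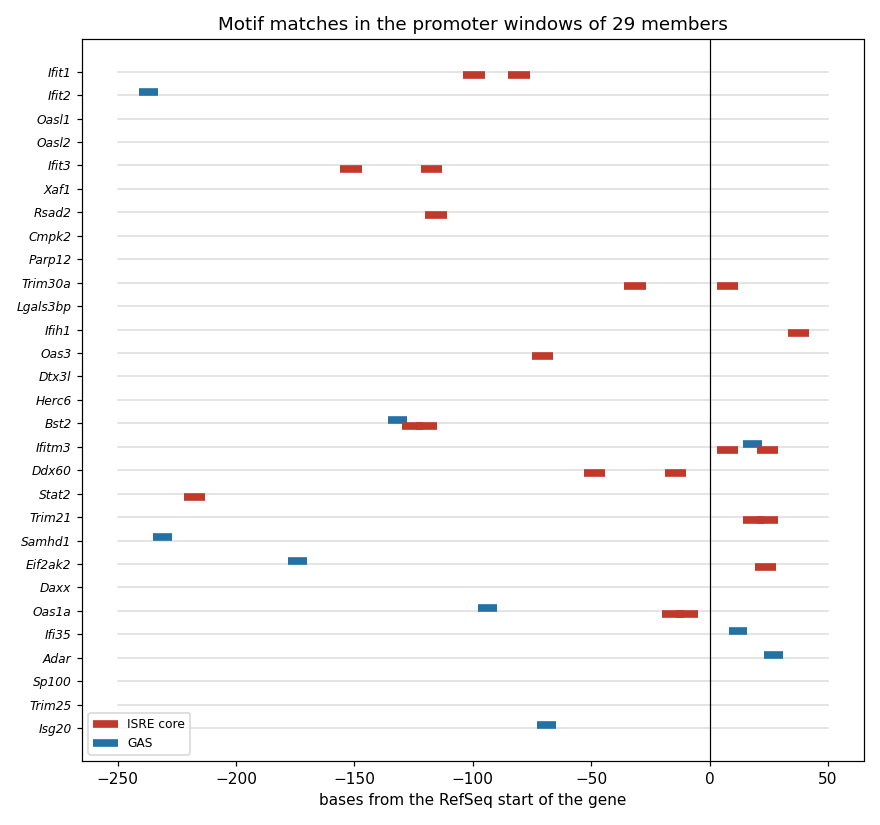
Positions of ISRE core matches (red) and GAS matches (blue) in the promoter windows of the 29 members with a RefSeq window, in bases from the annotated start (horizontal axis, 0 marks the start), with genes ordered by M1 minus M0 from the top. ISRE core matches were found for genes from Ifit1 at 5.75 down to Oas1a at 1.04, and GAS matches from Ifit2 at 4.83 down to Isg20 at -0.22. Several genes near the top, Oasl1 and Oasl2 among them, have neither in the window.

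The sensors of foreign RNA and the RNA-activated kinase rose in M1, all 5 of them, by 1.17 to 4.23. Zbp1, a sensor of left-handed nucleic acid that can trigger cell death, changed most. It read 6.46, 6.90, 6.76, 6.46 and 6.95 in M0 arrays 1 to 5, 10.98, 10.92 and 10.91 in M1, and 6.88, 6.67 and 6.50 in M2a. The M1 arrays stood apart from both other groups, which overlapped. Zbp1 was 18.7-fold higher in M1 than in M0 (log2 difference 4.23, SE 0.14, limma adjusted p = 1.1e-09), and M2a minus M0 was -0.03 (95% confidence interval -0.32 to 0.27). Ifih1 encodes MDA5, which detects long double-stranded RNA, and ran from 7.37 to 8.41 in M0, 10.20 to 10.32 in M1 and 8.18 to 8.39 in M2a (M1 minus M0 2.34). Dhx58 encodes LGP2, a relative that binds RNA but lacks the signalling domain, and ran from 6.19 to 6.88, 9.08 to 9.20 and 6.27 to 6.61 (2.56). Neither was called in M2a against M0, with differences of 0.37 and -0.15; the other probe sets of Dhx58, which read lower, were called higher there by 0.71 and 0.51.

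Ddx60, a helicase that has been linked to RNA sensing, rose in M1 and fell in M2a. Its values were 6.55 in each of M0 arrays 1 to 3, 5.69 and 7.42 in M0 arrays 4 and 5, 8.09, 8.34 and 8.49 in M1, and 5.41, 5.54 and 4.82 in M2a. The 3 groups did not overlap. Identical values in M0 arrays (within 0.0001) occur for 739 genes, 4.06% of those measured, and among the members for Ddx60 alone. M1 minus M0 was 1.75 (SE 0.30, limma adjusted p = 0.00079), M2a minus M0 was -1.30 (SE 0.30, adjusted p = 0.0069) and M1 was 8.27-fold higher than M2a. The M2a mean of Ddx60, 5.26, lies among the array medians (5.14 to 5.34). No measure of background was used here, so the differences from M2a compare readings that may lie near background. The other probe set of Ddx60 read lower, with means of 4.04 in M0 and 3.78 in M2a. It also rose in M1 (1.37) and was not called in M2a against M0 (-0.26, adjusted p = 0.29). With the hybridization covariate, Ddx60 was no longer called in M1 against M0 (0.58, adjusted p = 0.36). Eif2ak2 encodes PKR, the kinase that halts translation when it binds double-stranded RNA. It ran from 8.13 to 8.50 in M0, 9.46 to 9.47 in M1 and 7.54 to 7.86 in M2a, with a rise of 1.17 in M1 and a fall in M2a (-0.55, adjusted p = 0.0023); its second probe set gave 0.34 (adjusted p = 0.083) in M1 and -0.88 in M2a, and another gave 2.33 and 0.14 (not called in M2a, adjusted p = 0.62).

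All 6 genes of signalling and feedback rose in M1, by 0.68 to 4.10, and in M2a 1 rose and 1 fell. Usp18 removes the ubiquitin-like ISG15 from proteins and damps signalling at IFNAR2. It read 6.23, 6.54, 6.13, 5.44 and 7.16 in M0, 10.41, 10.39 and 10.39 in M1, and 7.31, 7.55 and 7.49 in M2a. M0 array 5 was the highest of its group and still lay below every M2a array. Usp18 rose 17.1-fold in M1 (4.10, SE 0.28, limma adjusted p = 5.7e-07) and 2.22-fold in M2a (1.15, SE 0.28, adjusted p = 0.0091), and the M2a value was -0.11 with the hybridization covariate. Trim30a, which restrains NF-kB signalling from Toll-like receptors, ran from 8.90 to 9.67 in M0, 11.82 to 11.93 in M1 and 8.49 to 8.71 in M2a. It rose by 2.60 in M1 and fell in M2a (-0.68, adjusted p = 0.0072), and its other probe set moved likewise (2.07 and -0.97). Stat2, the interferon-specific subunit of ISGF3, ran from 6.25 to 6.56 in M0, 8.02 to 8.06 in M1 and 5.78 to 6.34 in M2a; it rose by 1.63 in M1, and M2a minus M0 was -0.34 (adjusted p = 0.057). That difference passed the threshold without M0 array 4 (adjusted p = 0.041) and without M2a array 2 (-0.47, adjusted p = 0.018).

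The other genes of this group encode ligases of ubiquitin or ISG15, and all rose in M1. Herc6, which attaches ISG15 to proteins in mice, ran from 6.97 to 7.68 in M0, 9.28 to 9.47 in M1 and 6.86 to 7.16 in M2a (M1 minus M0 2.03), and its 3 other probe sets rose by 3.85 to 4.30. It was not called in M2a (-0.33), but was without M0 array 5 (-0.42, adjusted p = 0.029). Trim21, a receptor for antibody bound to virus inside the cell, ran from 7.76 to 7.98, 9.14 to 9.25 and 7.70 to 7.80 (1.31). Trim25, which modifies the sensor RIG-I, had the smallest rise of the list on the probe sets used, 0.68 (SE 0.12, limma adjusted p = 0.00095), with 9.65 to 10.14 in M0, 10.64 to 10.66 in M1 and 10.09 to 10.20 in M2a. Its other probe sets, which read lower, rose more, by 1.22 and 1.16. The Trim25 groups M0 and M1 did not overlap, and the rise was not called with the hybridization covariate (0.11, adjusted p = 0.56). M1 minus M2a was 0.49 (adjusted p = 0.017). It was not called without M1 array 2 or 3 (adjusted p = 0.055 and 0.052) or without M2a array 3 (0.062). The Trim25 probe set with the lowest level was not called there either (0.50, adjusted p = 0.17).

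The IFIT genes, whose products bind viral RNA that lacks host cap marks, had the largest rises of any group, with a median of 4.83. Ifit1 read 5.22, 6.38, 6.16, 5.39 and 6.45 in M0, 11.69, 11.66 and 11.67 in M1, and 5.97, 6.16 and 5.64 in M2a. M0 and M2a overlapped, and M1 stood far above both. The rise in M1 was 53.9-fold (5.75, SE 0.27, limma adjusted p = 2.5e-08), the largest of the 39. M2a minus M0 was 0.01 (95% confidence interval -0.59 to 0.60); it turned to -0.40 (adjusted p = 0.024) without M0 arrays 1 and 4 and to -1.37 with the hybridization covariate. Ifit3 read 6.60, 7.30, 7.08, 6.15 and 7.84 in M0, 10.61, 10.63 and 10.61 in M1, and 5.84, 6.15 and 5.28 in M2a. Here M2a lay at or below the lowest M0 arrays. Ifit3 rose 12.3-fold in M1 (3.62, SE 0.32, adjusted p = 4.1e-06) and fell 2.36-fold in M2a (-1.24, SE 0.32, adjusted p = 0.012), and the fall was not called without M2a array 3 (-1.0, adjusted p = 0.068). Ifit2 ran from 6.99 to 8.23 in M0, 12.41 to 12.46 in M1 and 5.86 to 6.67 in M2a. It rose by 4.83 in M1 and fell in M2a (-1.21, adjusted p = 0.0039), so that M1 exceeded M2a 65.8-fold, the widest gap between these states on the list. The 3 IFIT genes lie together on chromosome 19 in the RefSeq annotation.

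The oligoadenylate synthetase family, which detects double-stranded RNA and activates RNase L, rose in M1 for all 5 members, by 1.04 to 4.70. The OAS-like genes rose most. Oasl1, a family member without synthetase activity that represses translation of Irf7 mRNA in mice, read 6.22, 6.65, 6.49, 6.33 and 6.58 in M0, 11.17, 11.09 and 11.21 in M1, and 6.21, 6.56 and 6.40 in M2a. The M2a values lay within or beside the M0 range. Its rise was 26.1-fold (4.70, SE 0.12, limma adjusted p = 1.5e-10). Oasl2 ran from 6.40 to 7.69 in M0, 11.27 to 11.31 in M1 and 6.55 to 7.45 in M2a (M1 minus M0 4.13). Oas2 read 7.60, 8.09, 7.77, 7.91 and 7.73 in M0, 8.92, 8.88 and 8.93 in M1, and 6.95, 6.82 and 6.44 in M2a, with no overlap between the 3 groups. It rose by 1.09 in M1 (SE 0.13, adjusted p = 6.2e-05) and fell by a like amount in M2a (-1.08, SE 0.13, adjusted p = 9.7e-05). Oas3 ran from 5.27 to 5.90 in M0, 7.82 to 7.98 in M1 and 5.67 to 5.81 in M2a (2.19), and Oas1a from 9.47 to 10.05, 10.79 to 10.84 and 9.80 to 9.94 (1.04). Apart from Oas2, no member of the family was called in M2a against M0, with differences of -0.16 to 0.11. Without M0 arrays 1 and 4 Oasl2 was called lower there (-0.57, adjusted p = 0.026), and with the hybridization covariate Oasl2 (-1.54) and Oasl1 (-0.50) were.

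The Mx genes encode GTPases that trap viral nucleoproteins. C57BL/6 mice, like most laboratory strains, carry a defective Mx1 allele. The mRNA readings here do not speak of a working protein for Mx1 or for Mx2. Mx1 read 5.49, 5.70, 4.89, 5.27 and 5.45 in M0, 9.79, 9.73 and 9.91 in M1, and 4.34, 4.19 and 3.81 in M2a. The 3 groups were apart. Mx1 rose 21.9-fold in M1 (4.46, SE 0.17, limma adjusted p = 5.1e-09) and fell 2.37-fold in M2a (-1.24, SE 0.17, adjusted p = 0.00022), and M1 read 52.0-fold above M2a. Its M2a mean of 4.11 lies under the array medians (5.14 to 5.34), and no measure of background was used here, so the folds against M2a compare readings that may lie near background. Mx2 ran from 5.33 to 5.44 in M0, 6.87 to 7.07 in M1 and 5.24 to 5.46 in M2a. It rose by 1.58 in M1, and M2a minus M0 was -0.01 (95% confidence interval -0.20 to 0.18). The Mx2 means of 5.38 in M0 and 5.37 in M2a also lie near the array medians. Both may read near background, so the last difference does not show that Mx2 stayed unchanged.

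Among the enzymes that act on nucleotides and nucleic acids, 4 of 5 rose in M1. Rsad2 encodes viperin, which makes a chain-terminating nucleotide that stops viral polymerases. It read 8.22, 8.63, 8.63, 8.50 and 8.50 in M0, 11.80, 11.76 and 11.74 in M1, and 9.98, 10.05 and 9.65 in M2a. M2a sat between the other groups and overlapped neither. Rsad2 rose 9.65-fold in M1 (3.27, SE 0.12, limma adjusted p = 3.4e-09) and 2.63-fold in M2a (1.40, SE 0.12, adjusted p = 5.7e-06), and its other probe sets rose in M2a as well, by 1.81 and 1.59. Cmpk2, a mitochondrial nucleotide kinase whose gene lies on the same chromosome as Rsad2, ran from 5.29 to 6.65 in M0, 8.86 to 9.33 in M1 and 5.34 to 5.97 in M2a. It rose by 3.13 in M1, and M2a minus M0 was -0.25 (adjusted p = 0.51). Its other probe set, at a lower level, rose by 0.78 in M1 and was not called in M1 against M2a (0.49, adjusted p = 0.13). Samhd1, which degrades the nucleotides needed for reverse transcription, averaged 10.15 ± 0.10 (SD, n = 5) in M0, 11.41 ± 0.08 (n = 3) in M1 and 10.12 ± 0.25 (n = 3) in M2a (1.27). Adar, which edits adenosine to inosine in double-stranded RNA, ran from 7.52 to 7.85, 8.66 to 8.79 and 7.68 to 7.73 (1.04).

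Isg20, an exonuclease that degrades RNA, was the 1 member that did not rise in M1. It read 6.85, 6.65, 6.60, 6.50 and 6.90 in M0, 6.34, 6.51 and 6.61 in M1, and 6.00, 5.95 and 6.17 in M2a. M1 overlapped M0, and M2a lay below both. M1 minus M0 was -0.22 (SE 0.11, 95% confidence interval -0.47 to 0.03, limma adjusted p = 0.16). M2a minus M0 was -0.66 (SE 0.11, adjusted p = 0.0011) and M1 minus M2a 0.44 (SE 0.13, adjusted p = 0.022). The last of these was not called without M1 array 2 or 3 or without M2a array 1 or 2 (adjusted p = 0.071, 0.093, 0.074 and 0.086). Under quantile normalization Isg20 was called lower in M1 than in M0 (-0.33, adjusted p = 0.035), as it was with the actin covariate (-0.44, adjusted p = 0.023). That covariate is the actin 5-prime minus 3-prime control value. It ran from -1.27 to 0.05 in M0, 0.13 to 0.18 in M1 and -0.63 to -0.53 in M2a. It separates M1 from the other groups, so in that fit it and the contrasts with M1 are partly the same split of the arrays.

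Both membrane restriction factors rose in M1 and fell in M2a. Bst2, or tetherin, holds budding virus particles at the cell surface; it also marks plasmacytoid dendritic cells. It read 8.66, 9.50, 9.46, 8.73 and 9.68 in M0, 11.19, 11.12 and 11.10 in M1, and 8.52, 8.61 and 8.34 in M2a. The M2a arrays were all below M0, by little in the case of M0 arrays 1 and 4. Bst2 rose 3.81-fold in M1 (1.93, SE 0.22, limma adjusted p = 3.5e-05) and fell by 0.71 in M2a (SE 0.22, adjusted p = 0.029); the fall was not called without M0 array 2 or 3 (adjusted p = 0.059 and 0.060) or without M2a array 1, 2 or 3 (0.078, 0.060 and 0.11). Siglech, a defining marker of plasmacytoid dendritic cells, averaged 4.89 in M0, 4.83 in M1 and 4.95 in M2a, and the mean of 8 markers of those cells, Bst2 among them, ran from 6.17 to 6.23, 6.35 to 6.40 and 6.40 to 6.46. Ifitm3, which blocks fusion of viruses in endosomes, ran from 11.15 to 11.58 in M0, 13.15 to 13.29 in M1 and 10.48 to 11.29 in M2a. It rose by 1.86 in M1 and fell in M2a (-0.49, adjusted p = 0.037). That fall was not called without M2a array 1 (-0.30, adjusted p = 0.20) or 2 (0.12), without M0 array 2 (0.073), or without M1 array 1, 2 or 3 (0.053, 0.054 and 0.052).

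The PARP genes and Dtx3l formed an even group, with rises in M1 between 2.17 and 2.91. Parp12, an enzyme that adds single ADP-ribose units to proteins, read 7.38, 8.45, 8.39, 7.44 and 8.71 in M0, 10.89 to 11.06 in M1, and 8.34, 8.44 and 8.13 in M2a. M0 arrays 1 and 4 were about 1 unit under the other M0 arrays, and the M2a arrays lay within the M0 range. Its rise was 7.51-fold (2.91, SE 0.28, limma adjusted p = 8.7e-06). Parp14, of the same enzyme class, ran from 7.56 to 8.40 in M0, 10.66 to 10.74 in M1 and 7.93 to 8.26 in M2a (2.65). Parp9 and its partner Dtx3l form a ubiquitin ligase complex. Parp9 ran from 7.56 to 8.46, 10.40 to 10.44 and 8.0 to 8.27 (2.41). Dtx3l read 7.84, 8.10, 8.07, 7.61 and 8.40 in M0, 10.10, 10.12 and 10.31 in M1, and 7.65, 7.53 and 7.40 in M2a. It rose by 2.17 in M1 (SE 0.15, adjusted p = 7.3e-07). M2a overlapped M0 at M0 array 4, and M2a minus M0 was -0.48 (SE 0.15, adjusted p = 0.033); this was not called without M0 array 2 or 3 (0.063 each) or without M2a array 1, 2 or 3 (0.058, 0.093 and 0.13), and the other probe set gave 0.14. None of the 3 PARP genes was called in M2a, with differences of 0.09 to 0.23.

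The proteins of nuclear bodies rose least in M1, by a median of 1.02. Daxx, a histone chaperone, read 7.65, 8.14, 8.13, 7.91 and 8.04 in M0, 9.13, 8.93 and 9.02 in M1, and 7.98, 8.05 and 7.90 in M2a. M2a lay within the M0 range. Its rise was 2.07-fold (1.05, SE 0.12, limma adjusted p = 3.0e-05), and M2a minus M0 was 0.00 (95% confidence interval -0.26 to 0.26). Sp100, a core component of these bodies, read 7.36, 7.40, 7.20, 7.05 and 7.59 in M0, 8.20, 8.37 and 8.33 in M1, and 6.46, 6.71 and 6.49 in M2a, with no overlap. It rose by 0.98 in M1 (SE 0.12, adjusted p = 6.6e-05) and fell in M2a (-0.76, SE 0.12, adjusted p = 0.00060), as did its other probe set (-0.66).

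The remaining 5 genes all rose in M1. Xaf1, which opposes the cell death inhibitor XIAP, read 7.39, 8.04, 7.91, 7.00 and 8.56 in M0, 11.38, 11.29 and 11.28 in M1, and 8.27, 8.37 and 8.27 in M2a. The M2a arrays were tightly grouped inside the wide M0 range. Xaf1 rose 11.7-fold in M1 (3.54, SE 0.27, limma adjusted p = 1.3e-06), while its other probe set, with a lower reading, gave 0.51 in M1 minus M0 and 0.53 in M1 minus M2a. M2a minus M0 was 0.53 (adjusted p = 0.16), and 0.72 (adjusted p = 0.018) without M0 array 5. Tor3a, a torsin ATPase of the endoplasmic reticulum, read 6.56, 7.61, 7.40, 6.44 and 7.94 in M0, 9.57, 9.68 and 9.59 in M1, and 8.67, 8.70 and 8.45 in M2a, so that M2a lay between the others with no overlap. It rose 5.35-fold in M1 (2.42, SE 0.30, adjusted p = 6.1e-05) and 2.67-fold in M2a (1.42, SE 0.30, adjusted p = 0.0037), and its other probe sets rose in M2a by 1.48 and 1.51. The M2a difference was -0.18 with the hybridization covariate. M1 minus M2a was 1.01 (adjusted p = 0.042) and was not called when any one M1 or M2a array, or M0 array 3, was left out (adjusted p = 0.054 to 0.12), nor with the actin covariate (0.18, adjusted p = 0.65). As given for Isg20, the actin covariate separates M1 from M2a, so that fit cannot tell it apart from this contrast well. The other probe sets were not called in M1 against M2a (0.62 and 0.10, adjusted p = 0.059 and 0.73).

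Ifi35, a leucine zipper protein, was the fourth gene higher in both states. It ran from 9.23 to 9.69 in M0, 10.52 to 10.56 in M1 and 9.86 to 10.02 in M2a, with differences of 1.04 in M1 and 0.46 in M2a (limma adjusted p = 0.0068), the latter not called with the hybridization covariate (0.11, adjusted p = 0.57). Its other probe sets gave 0.28, also called, and 0.01 in M2a. Rtp4, a chaperone of membrane receptors, ran from 8.62 to 9.91 in M0, 12.07 to 12.13 in M1 and 7.81 to 8.85 in M2a. It rose by 2.84 in M1. M2a minus M0 was -0.88 (adjusted p = 0.052), and it passed the threshold without M0 array 1 (-1.04, adjusted p = 0.023), M0 array 4 (0.017) or M2a array 2 (-1.11, 0.043). Lgals3bp, a secreted galectin-binding protein, ran from 9.10 to 10.26, 12.01 to 12.12 and 9.53 to 9.68 (2.39 in M1). M2a minus M0 was -0.09 (95% confidence interval -0.63 to 0.45), called lower without M0 arrays 1 and 4 (-0.47, adjusted p = 0.0034) and with the hybridization covariate (-1.42), and M1 minus M2a was 2.48 (adjusted p = 3.2e-05).

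**Figure D4:**
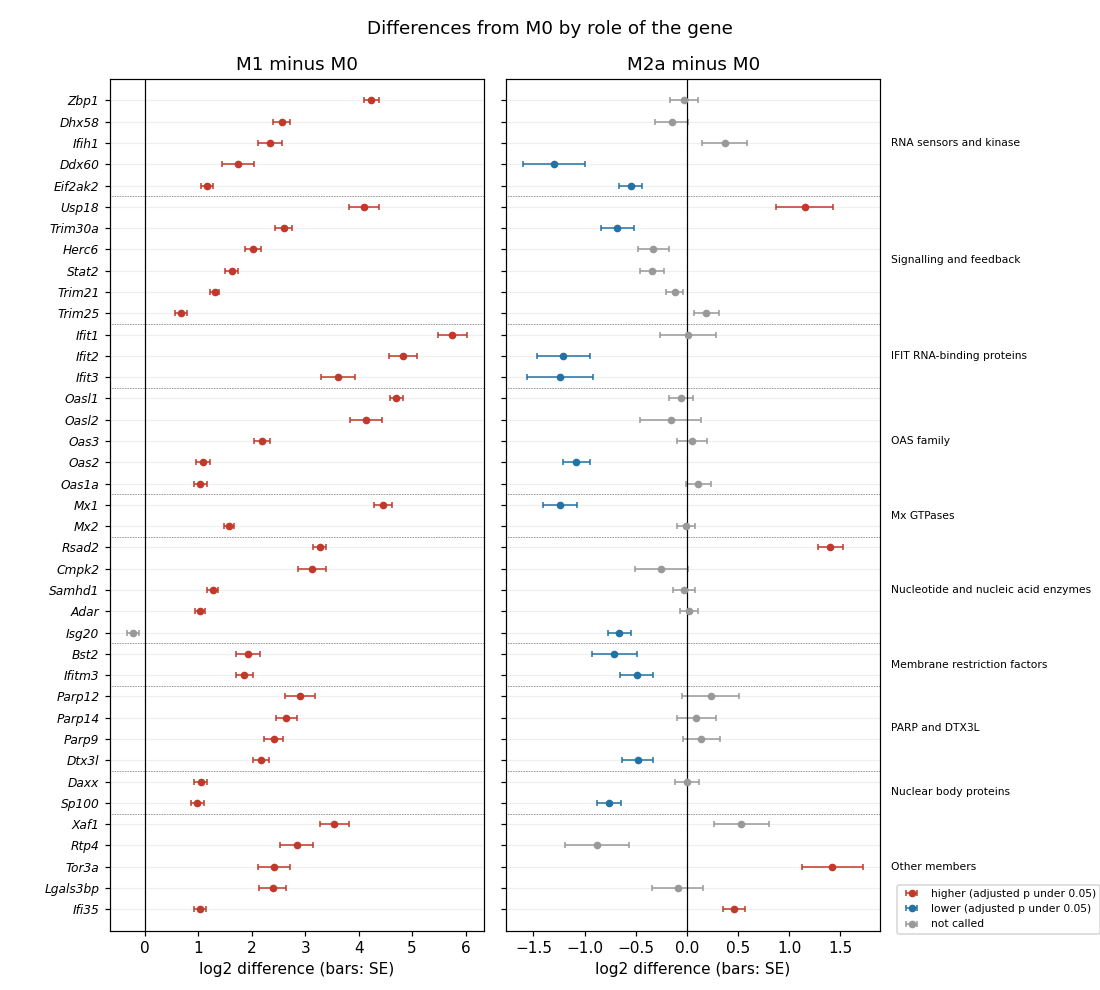
Log2 difference from M0 (horizontal axis) of each of the 39 genes, grouped by role, for M1 in the left panel and M2a in the right panel, which has a narrower scale. Points are differences and bars are standard errors of the fit over 11 arrays; red marks genes called higher, blue called lower and grey not called at an adjusted p of 0.05. In M1 all points but Isg20 are red, up to 5.75 for Ifit1, and in M2a the blue points go down to -1.30 (Ddx60) and the red ones up to 1.42 (Tor3a).

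Within M0, most members were lowest in the same arrays. The spread between replicates (median SD over the members) was 0.29 for M0, 0.06 for M1 and 0.15 for M2a, against 0.24, 0.08 and 0.09 over all genes. Of the 39 members, 18 were lowest in M0 array 1 and 15 in M0 array 4, together 33, where 46.0% of all genes were lowest in either. M0 array 5 was highest for 21 members (29.3% of all genes) and M0 array 2 for 14 (12.0%). Relative to the mean of M0, the median member stood at -0.27, 0.21, 0.08, -0.24 and 0.24 in arrays 1 to 5, and the median gene within 0.02 of zero in each. Arrays 1 and 4 also had the highest hybridization controls of M0 (11.70 and 11.69, against 10.61 to 10.98), the highest neutrophil marker means (12.88 and 12.10, against 11.42 to 11.80) and the lowest macrophage marker means (10.93 and 10.94, against 11.34 to 11.49). The part of these in the spread of the members was not tested. Because the means of arrays 1 to 3 and of 4 and 5 are tied, the deviations of the 5 arrays are not free of each other.

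**Figure D5:**
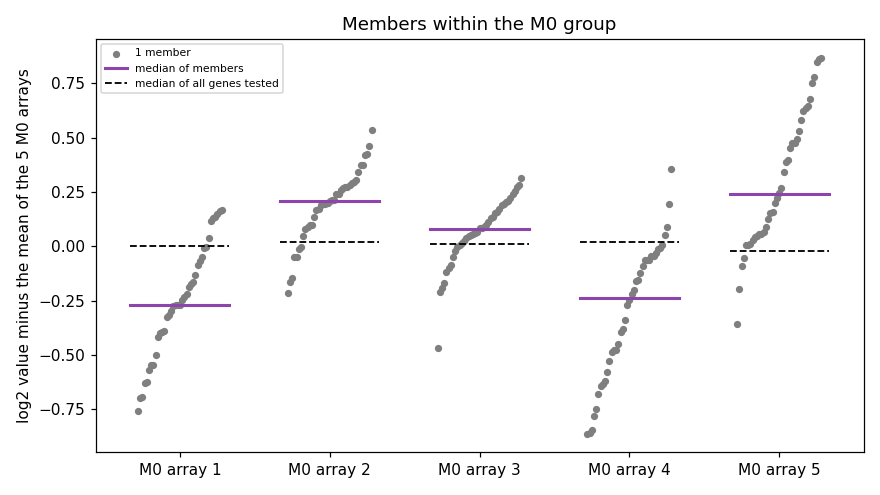
Log2 value minus the mean of the 5 M0 arrays (vertical axis) of each member (grey points, sorted within each array) in M0 arrays 1 to 5 (horizontal axis); purple lines are medians of the 39 members and dashed lines medians of all genes. The members' medians are -0.27 and -0.24 in arrays 1 and 4 and 0.08 to 0.24 in the others, while the median gene stays within 0.02 of zero.

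Genes upstream of the members, from lists written with earlier results of these data in view, gave a more mixed picture. Beside the counts that follow, 22.1% of all genes rose and 17.6% fell in M1 against M0. In M2a against M0 18.6% rose and 13.3% fell. Of the interferon genes themselves, 5 of 7 listed were measured, and Ifna1 alone was called, higher by 0.62 both in M1 and in M2a (limma adjusted p = 0.00019 and 0.00027). Ifnb1, the interferon that LPS induces, averaged 4.98 ± 0.37 (SD, n = 5) in M0, 5.11 ± 0.11 (n = 3) in M1 and 5.24 ± 0.02 (n = 3) in M2a and was not called in any comparison. These means lie near the array medians (5.14 to 5.34), as do those of Ifna1 (5.01 in M0, 5.63 in M1 and 5.63 in M2a). No measure of background was used here, so both genes may read near background. The missing call for Ifnb1 therefore does not show that it stayed unchanged. Of the receptor chains, kinases and Irf9, 4 of 5 rose in M1 and none was called in M2a: the receptor chain Ifnar2 rose by 1.88 and Ifnar1 by 0.50, the kinase Tyk2 by 0.55, and Irf9, the DNA-binding partner of Stat2, by 0.88. The kinase Jak1 was called in neither, with 0.03 and -0.22.

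Of 11 measured sensors and adaptors that lead to interferon production, 7 rose and 1 fell in M1, and 4 fell in M2a. Irf7, the factor that amplifies interferon-alpha transcription, rose by 4.03 in M1 (limma adjusted p = 7.3e-10) and fell in M2a (-0.71, adjusted p = 0.0010). Ikbke, a kinase that activates it, rose by 1.15 in M1 and fell in M2a (-1.23). Irf3 was lower in both (-0.48 and -0.56). Of 5 measured inhibitors of the pathway, 4 rose and 1 fell in M1, and 2 rose and 2 fell in M2a. Socs1, which blocks JAK kinases, rose in both states, by 5.33 in M1 and 1.06 in M2a. Socs3 rose by 5.10 in M1 and fell in M2a (-1.20), and the phosphatase Ptpn6 had the largest difference of the inhibitors in M2a (-1.45).

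Other interferon-stimulated genes outside the list moved as the members did in M1 with exceptions. Of 31 listed, 23 were measured. In M1 against M0 20 of these rose (22.1% of all genes) and 2 fell (17.6%), with a median of 1.43. In M2a against M0, 3 rose (18.6% of all genes) and 9 fell (13.3%), with a median of -0.24. Phf11d, with 4.20, had the largest M1 difference and also rose in M2a (1.73), as did Ube2l6, the conjugating enzyme for ISG15 (2.84 and 0.77), and the helicase Mov10 (1.37 and 0.60). Ms4a4c had the largest gap between the states (M1 minus M2a 4.89). The 2 genes that fell in M1, Ifitm1 (-1.34) and Ifi27l2a (-1.99), fell further in M2a (-4.21 and -3.59). Both were highest in M0, where the mean of the neutrophil markers was also highest. The part of those markers in these falls was not tested.

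The probe sets of a gene mostly gave the same call in M1 but not the same size of difference. For the 20 members with several probe sets, 31 of the 32 others were called higher in M1 against M0 (22.1% of all genes). In M1 against M2a 28 of 32 were (13.7% of all genes). The size of the M1 minus M0 difference varied between probe sets of a gene, among others for Xaf1 (0.51 to 3.54), Cmpk2 (0.78 to 3.13), Herc6 (2.03 to 4.30), Eif2ak2 (0.34 to 2.33) and Rsad2 (3.27 to 5.07). In M2a against M0, 7 were called higher, 5 lower and 20 neither, where 18.6% of all genes were called higher and 13.3% lower. Rsad2 and Tor3a were higher in M2a on all 3 of their probe sets, and Sp100 and Trim30a lower on both of theirs.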

How the data were processed

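The authors deposited log2 values of 45101 probe sets for 11 arrays; the submitters' processing notes name Partek with no version, and how background, probe summary and normalization were handled is not given in the sources used here. Their lowest value was 0.73 and the highest 14.49, with array medians between 5.14 and 5.34. Probe sets were named through the platform's annotation: 34945 had 1 gene symbol, of which 34741 were updated through the Entrez identifier, 932 had several and were left out, and the 64 control probe sets and 9160 others without an entry were not used for genes. Each of 18193 genes took its probe set with the highest mean; 20 members had several, 71 probe sets in all. No filter on low values was applied.

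Differences were fitted in R 4.3.3 with limma 3.58.1 (lmFit, eBayes; 1 model of the 3 group means over the 11 arrays with 8 residual degrees of freedom) and adjusted by Benjamini-Hochberg over all genes; the fit was tested on simulated data. The number of arrays limits the precision. The members and gene lists were chosen with earlier results of these data known. Named in full are, per role, the members with the largest M1 minus M0 and M2a minus M0 differences and any member not called in M1; genes of other lists were named by the largest difference per list and comparison, and further ones after their values were seen. There were 25 alternatives: other normalizations, probe set choices, filters, eBayes settings, array subsets, array weights, control covariates, the replicate number as a block and each array left out. Promoter windows came from RefSeq (GRCm38.p6).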

Additional observations from a re-analysis of the deposited data

How the results depend on the processing

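Of the 39 members, 35 kept their call (higher, lower or not called) in every alternative for M1 against M0. For M2a against M0 17 did, and for M1 against M2a 35. A change of sign in a member that stayed not called does not count here: Cmpk2, for one, ran from -0.93 to 0.28 in M2a minus M0. Mx2 was tested in 24 of the 25 alternatives. Of the 16 members called in M2a against M0, 8 were called in every alternative: Eif2ak2, Ifit2, Isg20, Mx1, Oas2, Rsad2, Sp100 and Trim30a. In M1 against M0, 38 members rose; 1 member, Isg20, was called lower under quantile normalization (-0.33) and 1, also Isg20, with the actin covariate (-0.44). In M2a against M0 the hybridization covariate left 1 member higher and 24 lower, where 25.4% and 24.1% of all genes were called. Sign changes were counted only for members called with or without the alternative setting, so others may have turned as well. Under the hybridization covariate the M2a minus M0 difference of such members changed sign for Ifit1 (-1.37), Usp18 (-0.11), Ifih1 (-0.78), Parp14 (-0.79), Xaf1 (-0.89), Parp9 (-0.68), Parp12 (-1.25) and Tor3a (-0.18). By the same count it turned for Ifit1 without M0 arrays 1 and 4 (-0.40), and for Dhx58 (0.71) and Dtx3l (0.14) with the second highest probe set. The cause was not tested. Leaving out each array in turn gave 38 to 38 members higher in M1 against M0 and 0 to 0 lower, 4 to 5 higher and 9 to 14 lower in M2a against M0, and 36 to 39 higher and 0 to 0 lower in M1 against M2a. Over these fits the shares of all genes called moved as well. In M1 against M0 15.9% to 26% were higher and 13.7% to 20.4% lower. In M2a against M0 12.7% to 22.4% were higher and 10.2% to 15.1% lower. In M1 against M2a 10.2% to 16.1% were higher and 11.4% to 18% lower. With M0 arrays 1 to 3 only, 38 members rose in M1 (25.2% of all genes), and in M2a 5 rose (21.2%) and 12 fell (15%), 11 of them as before. With the replicate number as a block the counts were 38 higher in M1 against M0 (24.9% of all genes), 5 higher (20.8%) and 12 lower (14.8%) in M2a against M0 and 39 higher in M1 against M2a (18.3%); Xaf1 (0.53, adjusted p = 0.025) and Rtp4 (-0.88, adjusted p = 0.037) were then called in M2a and Ifitm3 (-0.49, adjusted p = 0.074) was not. Samples with the same number did not all deviate together (correlations of -0.039 to 0.248), so the numbers were not taken as pairs. Genes above the median gene covered 38 members. A number of 3 arrays per cytokine state limits what can be called.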
